A study of Saccharomyces cerevisiae with 4 samples.

Results

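The genes described here are 35 genes of budding yeast (Saccharomyces cerevisiae) that keep thiols reduced and remove peroxide and superoxide. They were chosen by name: thioredoxins, glutaredoxins and the enzymes of glutathione, peroxiredoxins, dismutases, a catalase, the old yellow enzymes and the regulators Yap1 and Skn7. All 35 had a probe set of their own among the 5656 genes that could be named singly on the array, and 34 of them were among the 4476 genes bright enough to test. The arrays compared a wild-type strain with a mutant strain of histone H3, in which 8 lysines are glycine: lysines 4, 9, 14, 18 and 23, and also lysines 27, 36 and 79. Each group had 2 arrays (n = 2), hybridized with biotin-labelled cRNA made from about 20 µg of total RNA of cells in mid-log growth in YPD, a glucose-rich medium, harvested at an OD600 between 0.5 and 0.7. The wild type also served as the control of another H3 mutant, per its label. Mating type, ploidy, strain background and number of clones are not in the labels. Nor do they state that replicates came from separate cultures, so the p-values cover the spread of these arrays alone, which may be technical. The values are signals on a linear scale, and as the arrays are scaled to a common level, a change in total RNA per cell cannot be told apart from no change.

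In yeast, peroxiredoxins and glutathione peroxidases reduce peroxides, and their active cysteines are then reduced by thioredoxin. Thioredoxin is recycled by thioredoxin reductase and oxidised glutathione by glutathione reductase, both with NADPH from the pentose phosphate pathway. Most of these steps are carried out by separate enzymes in the cytosol and in mitochondria. The transcription factors Yap1 and Skn7 turn on many of the genes after peroxide, and Msn2 and Msn4 act on some of them in general stress.

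Log2 signals of replicate arrays correlated across the tested genes at r = 0.991 in wild type and 0.989 in the mutant, while arrays of different groups correlated at 0.942 to 0.949. They are taken over genes, and genes are no independent replicates. Other features of the samples moved with the group. The summed signal of 6 markers of a-mating-type cells, among them the pheromone gene MFA2 and the receptor gene STE2, was 2272 and 2553 on the wild-type arrays against 113 and 109 on the mutant arrays, and 6 of the 6 fell. The summed signal of 4 markers of alpha cells was 90.3 and 85.1 in wild type against 156 and 152 in the mutant. Only SAG1 of the 4 was bright enough to test, with 47.5 and 38.6 in wild type against 115.8 and 106.7 in the mutant. STE3 and both alpha-factor genes were under that limit. Their mean signals were 11.55 (STE3), 20.9 (MF(ALPHA)1) and 12.2 (MF(ALPHA)2) in wild type against 10.25, 19.35 and 13.15 in the mutant. No marker of either type was at 0. A control probe set of 25S ribosomal RNA gave 251.9 and 779.6 in wild type against 4142.8 and 4474.3 in the mutant, while the ratio of 3′ to 5′ actin signals lay between 1.49 and 1.59 on all 4 arrays. The part of these features in the results below was not tested.

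Of the 34 tested redox genes, 11 rose in the mutant, 5 fell and 18 did not pass (limma, Benjamini-Hochberg adjusted over all 4476 genes, threshold 0.05). Among all tested genes 14.3% rose and 15.5% fell. The increases were the larger changes. OYE3, SRX1, GTT2, PRX1 and TRR2 rose at least 2-fold, as did 2.08% of all tested genes, and 0 of the redox genes fell 2-fold, against 0.916% of all tested genes. The median log2 fold change was 0.07, beside -0.03 over all tested genes. Both mutant arrays lay above both wild-type arrays for 17 of the genes and below for 10, and the arrays overlapped for 7. Such separation held for 67.4% of all tested genes, with the mutant arrays above for 31.1% and below for 36.3%. Fold changes were computed on log2(signal + 16), where the added offset makes the changes of dim genes look smaller. GPX2 went from a mean signal of 64.7 in wild type to 31.35 in the mutant, a raw ratio of 0.485. With the offset its fall was 1.70-fold, so GPX2 was not counted among genes that fell 2-fold. Without mutant replicate 1 the counts were 6 higher and 1 lower, without mutant replicate 2 they were 7 and 4, without wild-type replicate 1 they were 8 and 2, and without wild-type replicate 2 they were 9 and 4.

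**Figure D1:**
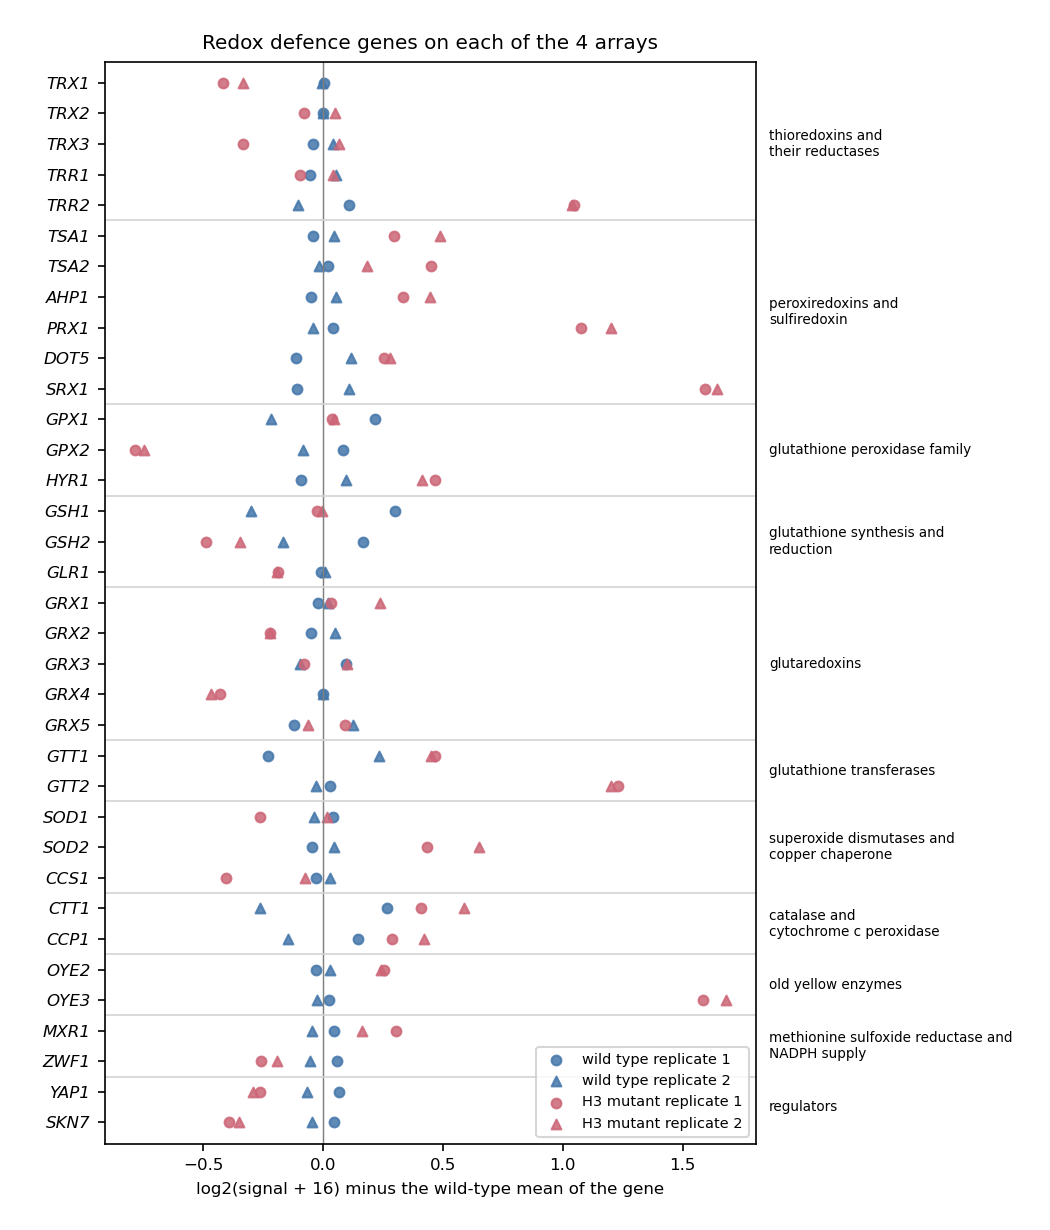
Level of each of the 35 genes on each array, as log2(signal + 16) minus the mean of the 2 wild-type arrays of that gene, with circles for replicate 1 and triangles for replicate 2, blue for wild type and red for the H3 mutant. The 2 mutant points of TRR2, PRX1, SRX1, GTT2 and OYE3 stand together, about 1 unit or more to the right of the wild-type points, and those of GPX2 stand to the left.

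Among the thioredoxin genes, the mitochondrial reductase rose and 1 cytosolic thioredoxin fell, while the cytosolic reductase did not pass. TRR2 (YHR106W, chromosome VIII), the mitochondrial thioredoxin reductase gene, gave signals of 64.4 and 53.4 on the wild-type arrays against 138.5 and 137.2 on the mutant arrays. The mutant arrays agreed closely, and both were more than 2-fold above the higher wild-type array, and TRR2 rose by 1.04 ± 0.111 (SE) on the log2 scale with a limma adjusted p of 0.000221. TRR1, the cytosolic reductase gene, gave 614.6 and 664.6 in wild type against 596.1 and 658.1 in the mutant. Its groups overlapped, and the log2 fold change of -0.03 had a 95% confidence interval of -0.25 to 0.19. TRX1, a cytosolic thioredoxin gene, gave 846.0 and 840.2 in wild type against 626.5 and 664.9 in the mutant. It fell by 0.38 on the log2 scale (adjusted p = 0.0160), a call lost on leaving out wild-type replicate 1 (adjusted p = 0.0588), wild-type replicate 2 (0.0508) or mutant replicate 1 (0.110). TRX2, the other cytosolic thioredoxin gene and a known Yap1 target, gave 810.8 and 810.4 against 765.8 and 840.6, with an interval of -0.23 to 0.20. TRX3, the mitochondrial thioredoxin gene, gave 106.6 and 114.1 against 84.3 and 116.1, so that the mutant arrays straddled the wild-type ones (interval -0.44 to 0.17).

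The peroxiredoxin genes and their repair enzyme all had both mutant arrays above both wild-type arrays, and 4 of the 6 passed the test. Among all tested genes, 31.1% had both mutant arrays above and 14.3% were called higher. SRX1 (YKL086W, chromosome XI), the sulfiredoxin gene, whose product restores peroxiredoxins that peroxide has overoxidised, gave 86.7 and 103.2 in wild type against 318.0 and 329.2 in the mutant. Its log2 fold change was 1.62 ± 0.104 (SE), with an adjusted p of 1.16e-05, and 18 tested genes had a higher one. PRX1 (YBL064C, chromosome II), the mitochondrial peroxiredoxin gene, gave 113.0 and 105.6 in wild type against 247.9 and 271.5 in the mutant. It rose by 1.14 ± 0.0970 (SE) on the log2 scale, with an adjusted p of 5.85e-05. The calls of SRX1 and PRX1 were kept whichever array was left out. The main cytosolic peroxiredoxin genes rose less. TSA1 gave 2383.1 and 2533.6 against 3022.5 and 3452.2, and AHP1, whose product favours alkyl hydroperoxides, gave 1824.0 and 1960.1 against 2384.6 and 2579.7. Each rose by 0.39 on the log2 scale, with adjusted p of 0.0384 and 0.0288. Both calls were lost with any 1 array left out and with median centring (adjusted p = 0.0768 and 0.0595), and with quantile normalization TSA1 was at 0.19 (0.1002). The adjusted p of TSA1 was 0.132 without wild-type replicate 1, 0.0736 without wild-type replicate 2, 0.0975 without mutant replicate 1 and 0.288 without mutant replicate 2. That of AHP1 was 0.107, 0.0533, 0.101 and 0.201 in the same order. TSA2, a cytosolic paralog of TSA1 that is known to be induced by stress, and DOT5, a nuclear peroxiredoxin gene, gave log2 values of 0.32 and 0.27 and did not pass (adjusted p = 0.0792 and 0.0834). TSA2 passed with median centring (adjusted p = 0.0478) and with the replicate number as a block (0.0254). The p-values of the block fit rest mainly on a spread pooled over genes. DOT5 had a log2 value of 0.38 without wild-type replicate 2.

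The genes of the glutathione peroxidase family went apart. GPX2 (YBR244W, chromosome II), a known Yap1 target, gave 69.4 and 60.0 in wild type against 30.7 and 32.0 in the mutant, which put both mutant arrays near the 25.1 signal below which genes were not tested. It was the member with the largest decrease, at -0.77 ± 0.112 (SE) on the log2 scale, and had an adjusted p of 0.00126. HYR1, whose product senses peroxide and passes the oxidation on to Yap1, gave 270.4 and 310.3 in wild type against 406.2 and 391.4 in the mutant. It rose by 0.44 on the log2 scale (adjusted p = 0.0104), a call lost on leaving out wild-type replicate 1 (adjusted p = 0.0616) or mutant replicate 1 (0.0526). GPX1 was too dim to test and its arrays overlapped, with signals of 24.3 and 13.8 in wild type against 19.5 and 19.8 in the mutant.

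None of the genes that make or recycle glutathione rose. GSH2, for the second step of synthesis, gave 259.6 and 202.3 in wild type against 158.7 and 176.9 in the mutant. It fell by 0.42 on the log2 scale (adjusted p = 0.0328), a call lost on leaving out wild-type replicate 1 (log2 value -0.25, adjusted p = 0.168) or mutant replicate 1 (0.147) and with quantile normalization (0.0537). GSH1, for the first and rate-limiting step, gave 127.2 and 78.3 against 98.1 and 99.9. The wild-type arrays differed from each other by more than the groups did, and the interval of its log2 fold change, -0.40 to 0.37, was the widest of the tested members. GLR1, the glutathione reductase gene, gave 298.3 and 302.3 against 261.8 and 260.7. The groups of GLR1 did not overlap and its replicates were nearly equal, but the log2 fold change of -0.19 did not pass (adjusted p = 0.130).

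Of the 5 glutaredoxin genes, 1 fell and 4 did not pass, beside 15.5% lower and 14.3% higher among all tested genes. GRX4, for a nuclear and cytosolic glutaredoxin known for its part in iron sensing, gave 81.3 and 81.4 in wild type against 56.3 and 54.4 in the mutant. It fell by 0.45 on the log2 scale with an adjusted p of 0.0117, and the call was lost without mutant replicate 1 (adjusted p = 0.0535) or mutant replicate 2 (0.0705). Its paralog GRX3, with 213.8 and 185.1 against 187.1 and 214.3, had overlapping groups and a log2 fold change of 0.01. GRX5, for the mitochondrial glutaredoxin of iron-sulfur cluster assembly, gave 172.6 and 207.8 against 202.9 and 180.6, again overlapping. The genes of the dithiol glutaredoxins, GRX1 and GRX2, gave log2 values of 0.14 and -0.22 (adjusted p = 0.336 and 0.0913).

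Both glutathione transferase genes rose, by unequal amounts, beside 14.3% higher among all tested genes. GTT2 (YLL060C, chromosome XII) gave 47.2 and 44.7 in wild type against 129.4 and 126.5 in the mutant. The replicates were nearly equal within each group, and the log2 fold change was 1.22 ± 0.102 (SE) with an adjusted p of 5.37e-05. GTT1 (YIR038C, chromosome IX), for a transferase of the endoplasmic reticulum, gave 177.0 and 250.0 in wild type against 297.2 and 293.7 in the mutant. It rose by 0.46 on the log2 scale (adjusted p = 0.0363), and the value was 0.23 without wild-type replicate 1. The GTT1 call was lost on leaving out wild-type replicate 1 (adjusted p = 0.148) and on leaving out mutant replicate 1 (0.0990) or mutant replicate 2 (0.0850).

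Of the genes for superoxide dismutases, the mitochondrial one rose. SOD2, for the manganese enzyme of the mitochondrial matrix, gave 209.2 and 224.2 in wild type against 298.1 and 349.5 in the mutant. It rose by 0.54 ± 0.104 (SE) on the log2 scale with an adjusted p of 0.00492, and its call was kept in each fit without 1 array (adjusted p up to 0.0486). SOD1, for the copper and zinc enzyme, gave 2118.0 and 2004.1 against 1713.9 and 2085.5. The groups overlapped and the interval was -0.40 to 0.16. CCS1, the copper chaperone gene of Sod1, gave 265.9 and 277.3 against 201.2 and 257.0, a log2 value of -0.24 that did not pass (adjusted p = 0.155) but passed without mutant replicate 2 (adjusted p = 0.0451).

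CCP1, for cytochrome c peroxidase of the mitochondrial intermembrane space, gave 177.2 and 141.9 in wild type against 197.4 and 217.8 in the mutant. It rose by 0.35 on the log2 scale, close to the threshold (adjusted p = 0.0480). That call was lost on leaving out wild-type replicate 2 (log2 value 0.21, adjusted p = 0.204), mutant replicate 1 (0.0762) or mutant replicate 2 (0.204), with an offset of 1 (0.0501), with no filter (0.0542) and with no intensity trend (0.0582). CTT1, the cytosolic catalase gene and a known target of Msn2 and Msn4, was dim, with 29.8 and 15.7 in wild type against 34.5 and 41.3 in the mutant. Its mutant arrays were both above the wild-type ones, but the log2 value of 0.50 had an interval from 0.12 to 0.88 and did not pass (adjusted p = 0.0524). The wild-type mean of CTT1 was under the 25.1 limit, so it entered the test through the mutant arrays. Without wild-type replicate 1 the log2 value of CTT1 was 0.76. CTT1 passed with median centring (adjusted p = 0.0249), an offset of 64 (0.0478) or the mean of probe sets (0.0480). It was also called with the replicate block (0.000215), a fit whose p-values rest mainly on a spread pooled over genes.

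The member with the largest increase was an old yellow enzyme gene. These enzymes are NADPH oxidoreductases that reduce unsaturated aldehydes and ketones. OYE3 (YPL171C, chromosome XVI) gave 48.8 and 46.6 in wild type against 174.9 and 188.4 in the mutant. The mutant signals were on average 3.81-fold the wild-type ones, and the log2 fold change on the offset scale was 1.63 ± 0.101 (SE), with an adjusted p of 9.27e-06. OYE2, for its paralog, gave 1045.8 and 1088.4 against 1274.9 and 1262.8. The groups did not overlap, but the log2 value of 0.25 did not pass (adjusted p = 0.0816). OYE2 passed only with the replicate block (0.0475), whose p-values rest mainly on a spread pooled over genes. MXR1, for a methionine sulfoxide reductase, gave 79.3 and 73.3 against 97.8 and 87.3, with a log2 value of 0.23 (adjusted p = 0.131).

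**Figure D2:**
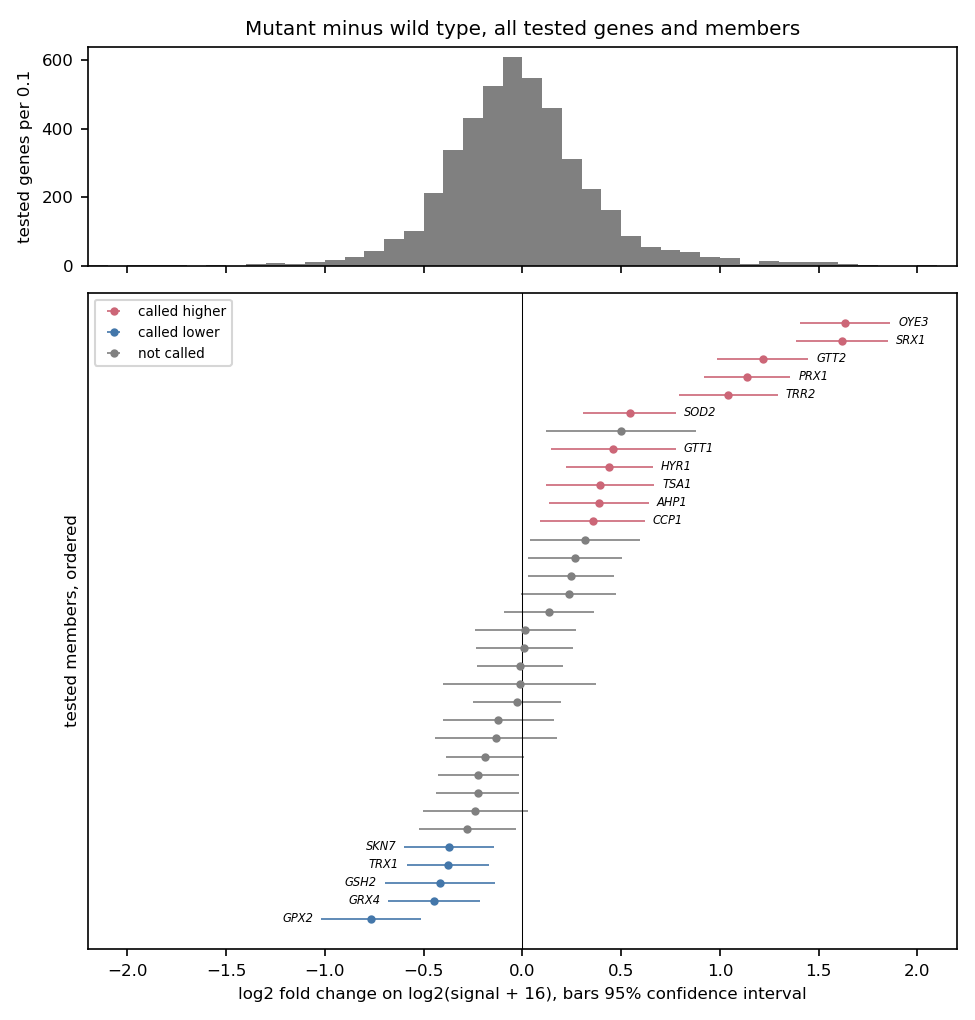
The upper panel counts all 4476 tested genes by log2 fold change in steps of 0.1, with values beyond 2.2 in either direction outside the axis. The lower panel shows the 34 tested redox genes in order with 95% confidence intervals, red for called higher, blue for called lower and grey for not called, and OYE3, SRX1, GTT2, PRX1 and TRR2 stand apart at the top, from 1.04 to 1.63.

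Neither regulator gene rose. SKN7 gave 114.5 and 106.4 in wild type against 80.2 and 83.2 in the mutant, and it fell by 0.37 on the log2 scale (adjusted p = 0.0237). The SKN7 call was lost on leaving out wild-type replicate 1 (adjusted p = 0.0932) and on leaving out mutant replicate 1 (0.125) or mutant replicate 2 (0.0834). YAP1 gave 67.6 and 60.2 against 50.5 and 49.1, a log2 value of -0.28 that did not pass (adjusted p = 0.0811) but passed with quantile normalization (0.0403). Yap1 is known to be controlled mainly by its place in the cell, so its mRNA does not measure its activity.

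In 9 of 10 pairs of related genes, the difference between the 2 genes lay outside the wild-type range on both mutant arrays. The same held for 69.1% of all pairs of tested genes. The change differed by 0.6 or more on the log2 scale in 6 of the 10, and GPX2 is in 2 of those 6. That cut lies between GRX4 minus GRX3 at -0.46 and SOD2 minus SOD1 at 0.67. The share of all pairs of tested genes that differ as much was not computed, so the 6 cannot be set against it. The comparison is of changes, since signals of different probe sets cannot be set against each other, and 2 arrays against 2 cannot give an exact two-sided permutation p below 0.333. The difference OYE3 minus OYE2, with the wild-type mean set to 0, was 0.05 and -0.05 on the wild-type arrays against 1.33 and 1.44 on the mutant arrays. The difference TRR2 minus TRR1 was 0.16 and -0.16 in wild type against 1.15 and 1.00 in the mutant. SOD2 minus SOD1 was 0.70 and 0.63 on the mutant arrays, and HYR1 minus GPX2 was 1.25 and 1.16. In the first 3 of these pairs 1 gene rose and the other did not pass, and in the last HYR1 rose while GPX2 fell. The difference GTT2 minus GTT1 was 0.76 and 0.75 in the mutant, and GPX2 minus GPX1 was -0.82 and -0.79, where GPX1 was too dim to test. TSA2 minus TSA1 overlapped between the groups, at 0.15 and -0.31 in the mutant.

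**Figure D3:**
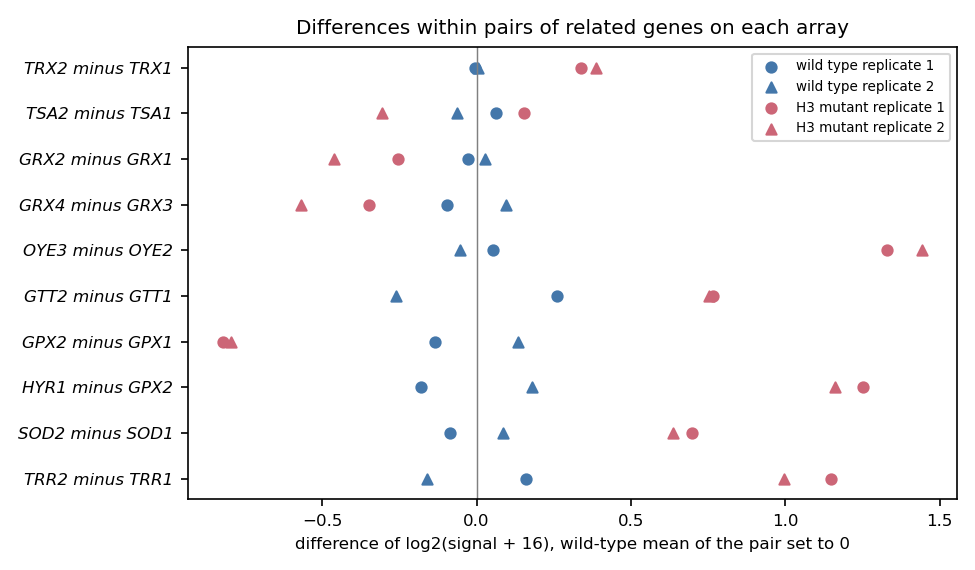
For 10 pairs of related genes, the difference of their log2(signal + 16) values on each array, with the wild-type mean of each pair set to 0, circles for replicate 1 and triangles for replicate 2, blue for wild type and red for the H3 mutant. The mutant arrays stand clear of the wild-type arrays in every pair drawn except TSA2 minus TSA1.

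Grouped by where their products work, 4 of the 6 genes for enzymes found mainly in mitochondria rose (TRR2, PRX1, SOD2 and CCP1), and TRX3 and GRX5 did not pass. Their median log2 fold change was 0.45. With GLR1 and GRX2, listed here as having products in mitochondria and in the cytosol, 4 of 8 rose and the median was 0.18. SOD1 and CCS1 were counted as cytosolic, and the grouping misses any other product that also works in mitochondria. Of the 26 tested members outside these 8, 7 rose, 5 fell and 14 did not pass, with a median of 0.07, and of all tested genes 14.3% rose. This grouping was made after the values were seen and was not tested.

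Among the members that rose, 3 lie close to a chromosome end. By gene order in the RefSeq R64 table, GTT1 and HYR1 are neighbours, the protein-coding genes ranked 4 and 5 from an end of chromosome IX, and GTT2 is ranked 8 from an end of chromosome XII. Of all 140 tested genes among the outermost 10 of a chromosome arm 64 rose (45.7%) and 4 fell, with a median log2 fold change of 0.29. YPS6, beside GTT1, rose by 1.22 and HSU1, beside GTT2, rose by 0.77 on the log2 scale, while MMP1, on the other side of GTT2, gave 0.20 and IRC24, beside HYR1, gave -0.06. The other members with large increases lie farther in, OYE3, SRX1, TRR2 and PRX1 at ranks 110, 130, 123 and 46. COX10 and DAP1, the neighbours of OYE3, gave 0.03 and 0.01, and CDC12, beside TRR2, gave 0.11. MDH1 and CYT2, the neighbours of SRX1, gave 0.48, which passed, and -0.28, which did not (adjusted p = 0.0562). Of 16 tested neighbours of the members that rose, leaving out members, 4 rose and 1 fell, beside 14.3% higher and 15.5% lower among all tested genes. Neighbours were named for their position, after the values of the members were seen.

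NADPH feeds both thioredoxin reductase and glutathione reductase, and the pentose phosphate pathway supplies much of it. ZWF1, for glucose-6-phosphate dehydrogenase at the entry of the pentose phosphate pathway, gave 326.4 and 300.5 in wild type against 258.7 and 271.7 in the mutant, a log2 value of -0.23 that did not pass (adjusted p = 0.0916). Of 14 other tested genes of NADPH supply and the pentose phosphate pathway, 4 rose and 3 fell, 7 did not pass, and their median was 0.09, beside 14.3% higher and 15.5% lower among all tested genes. The 3 that fell belong to later steps that make no NADPH, as does TKL2, which rose. SOL4, for a 6-phosphogluconolactonase, rose from 61.0 and 58.1 to 106.1 and 122.5, and GND2, for the minor 6-phosphogluconate dehydrogenase, from 38.0 and 30.0 to 70.0 and 57.2. TKL2, for the minor transketolase, gave 20.4 and 18.6 against 35.4 and 60.0, and rose by 0.82 on the log2 scale with an adjusted p of 0.00746. Both wild-type signals of TKL2 were under the 25.1 limit, so the gene entered the test only through the mutant arrays on which it is high. The TKL2 call was lost on leaving out wild-type replicate 1 (adjusted p = 0.0655) or wild-type replicate 2 (0.0721). The fourth gene that rose, named after its values were seen, was STB5, a regulator of NADPH-producing genes, with 0.34 and an adjusted p of 0.0426. Its call was lost with any 1 array left out (adjusted p = 0.142 and 0.0914 for wild-type replicates 1 and 2, and 0.189 and 0.0717 for mutant replicates 1 and 2), with quantile normalization (0.0605) and when scaled to the hybridization controls (log2 value 0.06, 0.729).

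The genes of the later, non-oxidative steps that fell were RKI1, TAL1 and RPE1. RKI1, for ribose-5-phosphate isomerase, gave 127.2 and 122.0 in wild type against 81.4 and 67.7 in the mutant, and fell by 0.64 on the log2 scale (adjusted p = 0.00310). TAL1, the transaldolase gene, gave 544.3 and 447.4 against 307.2 and 340.9 and fell by 0.59 (adjusted p = 0.00528). RPE1, for ribulose-phosphate epimerase, fell by 0.32 (adjusted p = 0.0267), a call lost on leaving out wild-type replicate 1 (0.104), mutant replicate 1 (0.105) or mutant replicate 2 (0.103) and with quantile normalization (0.0512). The major isoforms of the steps whose minor isoforms rose did not pass, with SOL3 at -0.19, GND1 at 0.28 and TKL1 at 0.10. GND1 was close to the threshold (limma adjusted p = 0.0527). Its interval of 0.07 to 0.50 overlapped that of GND2, 0.38 to 0.96. A difference between major and minor isoforms was not tested.

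**Figure D4:**
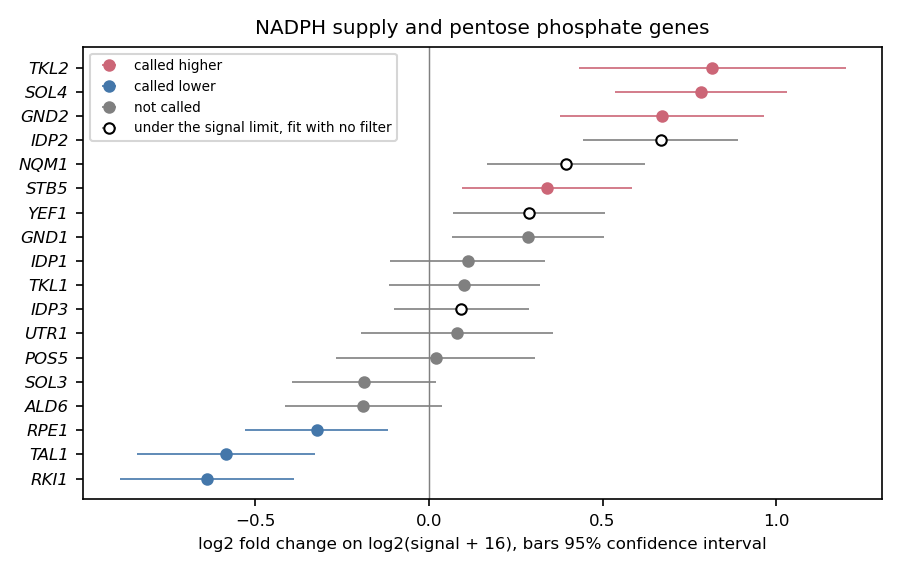
Log2 fold changes with 95% confidence intervals for the 18 listed genes of NADPH supply and the pentose phosphate pathway, red for called higher, blue for called lower, grey for not called and open for genes under the signal limit, which come from the fit with no filter. TKL2, SOL4 and GND2 lie from 0.67 to 0.82, and RKI1, TAL1 and RPE1 from -0.64 to -0.32.

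Among thiol and peroxide genes outside the 35, 4 of 21 tested rose and 0 fell by limma, while 17 did not pass, with a median of -0.02. Of the genes below 0, YCF1, for a vacuolar transporter of glutathione conjugates, gave -0.23 (limma adjusted p = 0.0814) and was the one gene with an unadjusted p under 0.05. Scaled to the hybridization controls, 12 of the 21 were called lower, as were 55.6% of all tested genes. With the deposited scaling, 14.3% of all tested genes rose and 15.5% fell. ATR1, a drug efflux gene known as a Yap1 target, rose from 125.1 and 105.6 to 207.4 and 202.2 (log2 fold change 0.75, adjusted p = 0.000964). ECM4, for an omega-class glutathione transferase, rose from 90.0 and 70.6 to 148.7 and 139.4 (0.74, adjusted p = 0.00216). GRE2, for a methylglyoxal reductase, gave 331.3 and 200.7 in wild type against 428.2 and 490.8 in the mutant, and rose by 0.79 (adjusted p = 0.0137), a call lost with a robust prior (adjusted p = 0.0824). PST2, named after its values were seen, gave 523.2 and 649.2 against 794.1 and 833.5 and rose by 0.47 (adjusted p = 0.0164). The PST2 call was lost on leaving out wild-type replicate 1 (adjusted p = 0.0829) or mutant replicate 2 (0.0698), and scaled to the hybridization controls PST2 was at 0.06 (0.744). CTA1, the peroxisomal catalase gene, was below the signal limit, with mean signals of 9.9 in wild type and 21.8 in the mutant. Of the other listed genes below that limit, GTO1, GTO3, LOT6 and GEX2 had both mutant arrays above. GRX8 and YBP1 had both below, and CYC2 overlapped.

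Of 14 other tested stress regulator genes, 1 rose and 2 fell, while 11 did not pass, with a median of -0.08, beside 14.3% higher and 15.5% lower among all tested genes. HOG1, the kinase gene of the osmotic stress pathway, gave 419.2 and 428.5 in wild type against 256.3 and 271.9 in the mutant, and fell by 0.65 on the log2 scale (adjusted p = 0.000892). YRR1, a regulator of drug resistance genes, fell by 0.42 (adjusted p = 0.0190), a call lost on leaving out wild-type replicate 1 (0.0888), mutant replicate 1 (0.0548) or mutant replicate 2 (0.117). MAC1, a regulator of copper uptake, rose by 0.52 (adjusted p = 0.0476) and was not called without wild-type replicate 2 (log2 value 0.23, 0.189), mutant replicate 1 (0.150) or mutant replicate 2 (0.0894). The MAC1 call was also lost with an offset of 1 (adjusted p = 0.0526), no filter (0.0579), a robust prior (0.0659) and scaling to the hybridization controls (log2 value 0.19, 0.303). MSN2 and MSN4 gave -0.14 and -0.09 and did not pass.

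Bacterial control RNAs added at hybridization gave geometric means of 174 and 201 on the mutant arrays against 138 and 141 on the wild-type arrays. Scaled to these controls, the median over all genes moved from -0.03 to -0.38 on the log2 scale, with 4.67% of genes higher and 55.6% lower. The redox genes moved by -0.42 to -0.27, so the starting size of an increase largely set whether it stayed above 0. On that scale OYE3, SRX1, GTT2, PRX1 and TRR2 were still called higher, at 1.28, 1.24, 0.87, 0.75 and 0.69, and 17 of the redox genes were lower. SOD2, GTT1 and HYR1 stayed above 0, at 0.15, 0.06 and 0.04, and lost their calls (adjusted p = 0.410, 0.730 and 0.838). TSA1, AHP1 and CCP1 turned to -0.03 each.

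**Figure D5:**
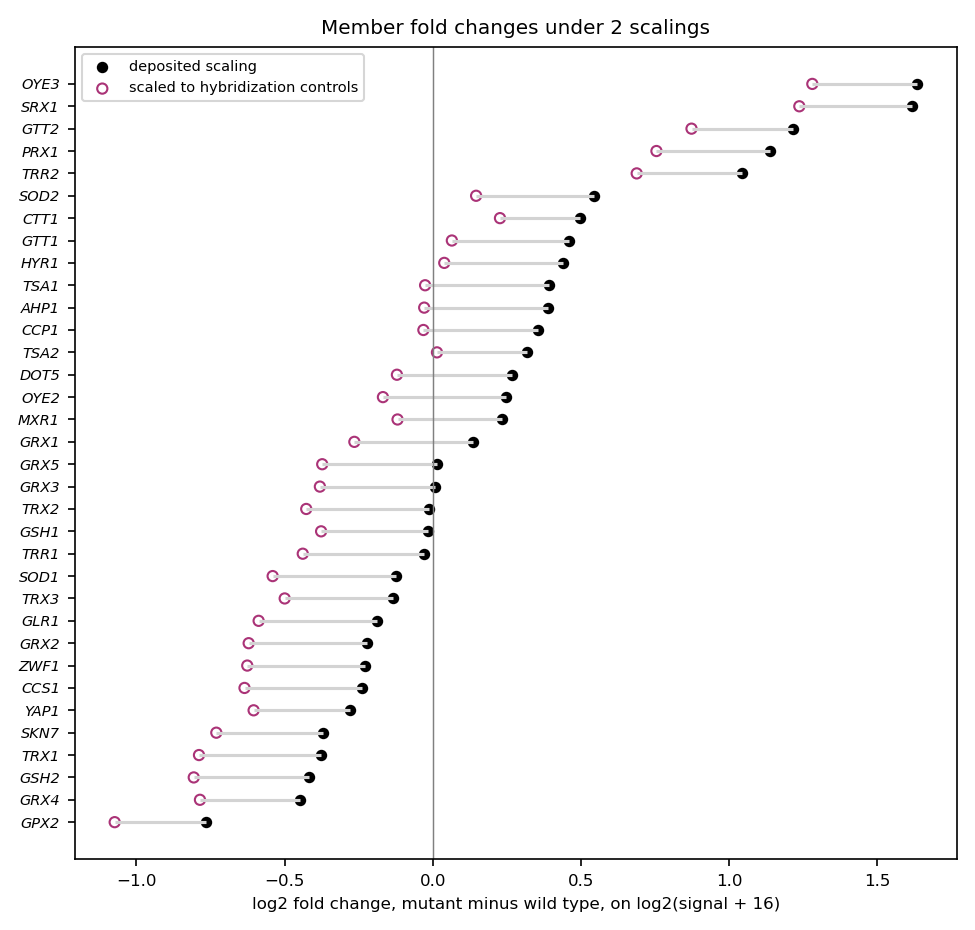
Log2 fold changes of the 34 tested redox genes with the deposited scaling (filled) and scaled to the hybridization controls (open), joined by a line for each gene. Every gene moves to the left, the 5 genes at the top stay above 0.68, and TSA1, AHP1 and CCP1 cross 0.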

How the data were processed

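Total RNA from 2 wild-type and 2 H3 mutant samples was measured on one-colour oligonucleotide arrays. The authors deposited linear intensity values from MAS5, a tool named in the submitters' processing notes, whose version, settings and target level were not given in the sources read for this work. Trimmed means were equal on all arrays (125.1), so no normalization was added. Of 9335 probe sets, the platform's annotation gave 6504 a single gene, 328 more than 1 and 2503 no gene, and symbols were updated to RefSeq R64. Probe sets with several genes were left out. No gene coordinates or sequences are printed.

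The test was limma 3.58.1 (R 4.3.3), with lmFit and eBayes with trend, of the mutant minus wild-type difference in log2(signal + 16). For each gene the brightest probe set entered if its mean log2 value reached the 25th percentile, a signal of 25.1. The fit was tested on simulated data. Standard errors (SE) and 95% intervals are moderated. The number of arrays limits the precision.

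The 35 genes and the other lists were chosen with earlier results of these data known. All 35 genes are named, with up to 3 called genes in each direction from each other list, by moderated statistic. Other genes of these lists, among them CTA1, YCF1, SOL3, GND1, TKL1, MSN2, MSN4 and SAG1, were named outside this rule, after their values were seen. Alternatives changed the offset, normalization, filter, prior, block, probe-set rule and arrays. Figures used matplotlib 3.10.9 in Python 3.11.15.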

Additional observations from a re-analysis of the deposited data

How the results depend on the processing

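The calls of OYE3, SRX1, GTT2, PRX1, TRR2 and GPX2 were kept under all 15 alternatives run, except that GPX2 was below the filter at the median. Under scaling to the hybridization controls, 209 genes were higher and 2489 lower in all. The redox genes then had 5 higher, 17 lower and a median of -0.32. The other thiol and peroxide genes had 12 lower and a median of -0.39, the NADPH genes 5 lower and -0.29, and the stress regulators 0 higher, 9 lower and -0.42. On that scale TSA1 was at -0.0262, AHP1 at -0.0293 and CCP1 at -0.0321, and GRX3 (-0.38) and GRX5 (-0.37) were called lower. With median centring the redox median was 0.10, that of the other thiol genes 0.00301, and 2 regulators were higher. With quantile normalization the redox median was 0.12. With no filter, 836 of 5656 genes were higher in all, and the redox median was 0.0408. Of the other thiol genes, 7 of 29 were then higher with a median of 0.0330, and 0 regulators were higher. With a filter at the median, 425 genes were higher in all, the thiol median was -0.0140, 2 NADPH genes were higher with a median of -0.19, and 0 regulators were higher. The regulators had 0 higher with an offset of 1 or a robust prior, and 2 with no intensity trend, the replicate block or the mean of probe sets. The cause of these differences between settings was not tested.

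With 1 array left out, 414 to 457 genes were higher and 320 to 467 lower in all, against 641 and 694. The redox genes had 6 to 9 higher, 1 to 4 lower and medians of 0.0619 to 0.15. The other thiol genes had 3 to 4 higher and medians of -0.0208 to 0.0227. The NADPH genes had 2 to 3 higher, and the regulators 0 to 1 higher, 1 to 2 lower and medians of -0.15 to -0.00862. Same-numbered arrays share only a number in the labels, and their deviations from the group means correlated at 0.130 across genes. With the replicate number as a block, 800 genes were higher and 966 lower in all. The redox genes then had 14 higher, CTT1, TSA2 and OYE2 added, and 5 lower. That fit leaves little spread of each gene's own. Its p-values, such as an adjusted p of 5.25e-39 for OYE3, rest mainly on a spread pooled over genes. The promoter motif search planned for these genes was not run.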
